A study of Homo sapiens with 5 samples.

Results

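The 7 genes described here encode the enzymes that turn pregnenolone into the active steroid hormones: HSD3B1, HSD3B2, CYP17A1, CYP21A2, CYP11B1, CYP11B2 and CYP19A1. They were looked up by symbol in the gene annotation, all 7 were found among the 20162 protein-coding genes, and a peak was assigned to a gene when its centre lay within 100 kb of the gene body on the hg19 build. By this rule 16 of the 30372 peaks of the series lay near a member. They fell at 12 sites, where a site is a set of overlapping peaks merged over the lists.

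The peaks mark binding of steroidogenic factor-1 (SF-1, encoded by NR5A1) in chromatin, mapped by chromatin immunoprecipitation and sequencing (ChIP-seq). All groups came from H295R/TR SF-1 cells, a single subclone of the H295R adrenocortical tumor line in which doxycycline switches on additional SF-1. The 4 groups were basal SF-1 (no doxycycline) and overexpressed SF-1 (doxycycline for 3 days), each precipitated with an antibody from Millipore and with another from Perseus. By its label each group joined 3 replicate libraries, read here as pooled. Peaks were called against input DNA, labelled as 2 libraries, for which no peaks are listed. The lists therefore give 1 value per group, without replicate error, and no test between groups was possible. The lists hold no expression values, so the cell type was not checked against markers.

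In the adrenal cortex pregnenolone, the first product made from cholesterol, is passed between enzymes of the endoplasmic reticulum and of the mitochondria. The oxidation by HSD3B2, the adrenal and gonadal form, or by HSD3B1, the form of placenta and peripheral tissues, gives progesterone. CYP17A1 leads toward cortisol and androgens, CYP21A2 is shared by the cortisol and aldosterone branches, CYP11B1 completes cortisol, CYP11B2 completes aldosterone, and CYP19A1 (aromatase) makes estrogens. SF-1 is a nuclear receptor that binds DNA as a monomer and is known as a regulator of steroid enzyme genes through sites in their promoters.

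The basal Millipore list held 4393 peaks, the overexpressed Millipore list 11910, the basal Perseus list 6616 and the overexpressed Perseus list 7453. Peaks had a median width of 149 bp in every list. A rank, with 1 as the best, is the only measure of a peak, and what was ranked is not stated. Ranks are therefore given as a percent of the list length, and they order peaks only within their own list. The number of reads behind each list is unknown.

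Around the 7 genes the Millipore antibody gave 2 peaks without doxycycline and 3 with it, and the Perseus antibody 7 and 4. Exact Poisson 95% intervals of these counts, which cover counting error only, were 0.242 to 7.22, 0.619 to 8.77, 2.81 to 14.4 and 1.09 to 10.2. All 4 intervals overlap. Per 10000 peaks of the list the values were 4.55 and 2.52 for Millipore, and 10.6 and 5.37 for Perseus. In the full lists the peaks near members thus made up a smaller share at overexpressed than at basal dosage with either antibody, within wide counting intervals. The lists differ in length. With every list cut to its best 4393 peaks, the counts were 2 and 2 for Millipore, and 4 and 2 for Perseus.

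In the basal Millipore list 2 of the 7 members had a peak, where 36.5% of all protein-coding genes did. The overexpressed Millipore list had a peak at 3 of 7 members against 67.9% of all genes. In the basal Perseus list 6 of 7 had a peak against 52.6% of all genes, and in the overexpressed Perseus list 6 of 7 against 56.7%. With 7 genes, the basal Millipore count is at the background. The members are not 7 independent observations, because CYP11B1 and CYP11B2 are neighbours with the same 3 peaks, and HSD3B1 and HSD3B2 are neighbours with the same 2 peaks. When every list was cut to its best 4393 peaks, a peak remained at 2 members for basal Millipore, at 3 for overexpressed Millipore (40.7% of all genes), at 4 for basal Perseus (41.8%) and at 3 for overexpressed Perseus (43.1%). At equal length the members were therefore near the background in all 4 lists, and the lower and higher counts of the full lists did not hold.

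**Figure D1:**
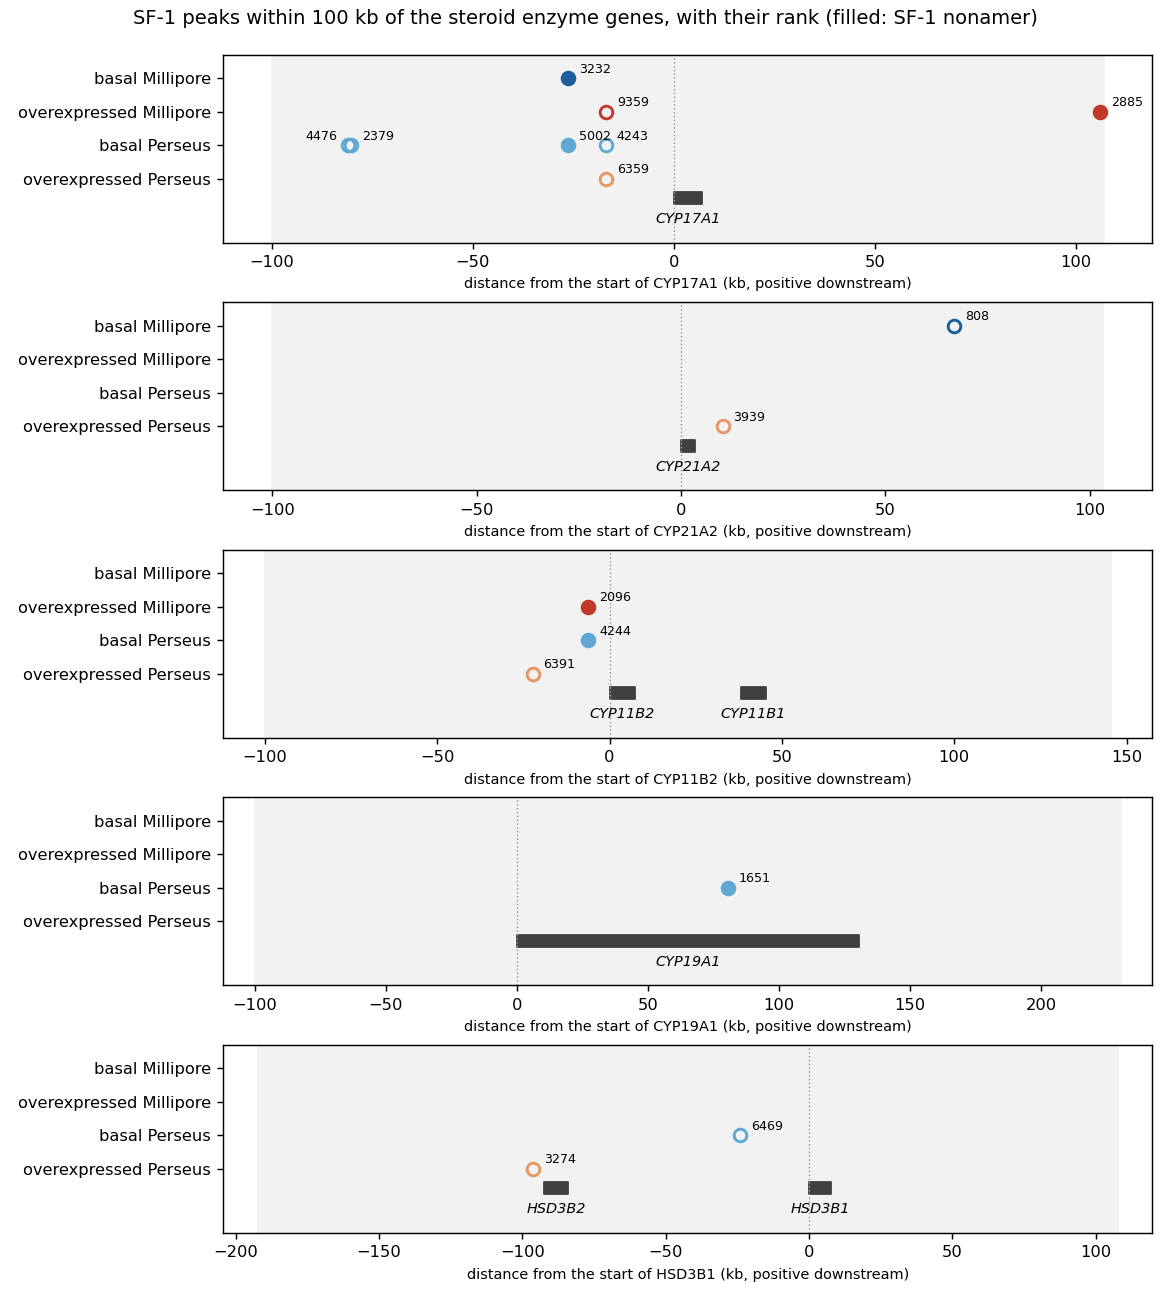
Peaks within 100 kb of the 7 genes, 1 panel per locus. The horizontal axis is the distance from the start of the named gene in kb, positive downstream, the rows are the 4 lists, black bars are gene bodies and the number beside each circle is the peak's rank in its list. Filled circles hold the SF-1 nonamer. CYP17A1 has 8 of the 16 peaks, and no circle lies at the start of a member.

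No member had a peak centre within 1 kb of its start in any list, so the count was 0 of 7 in each. Among all protein-coding genes the share with such a peak was 1.02% in the basal Millipore, 8.19% in the overexpressed Millipore, 9.56% in the basal Perseus and 10.5% in the overexpressed Perseus list. At these shares a set of 7 genes holds few promoter peaks or none, so the zeros are close to the background. Counting the starts of all annotated transcripts left the zeros in place. The closest peak to the start of any member was 3879 bp upstream of HSD3B2, in the overexpressed Perseus list.

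HSD3B1 (ENSG00000203857, chr1:120049821-120057677, plus strand) and HSD3B2 (ENSG00000203859, chr1:119957554-119965658, plus strand) had no peak in either Millipore list and 1 peak in each Perseus list. The overexpressed Perseus peak, chr1:119953601-119953749, ranked 3274 (43.9% of the list). It was intergenic, 3879 bp before the start of HSD3B2 and 96.1 kb before that of HSD3B1. The basal Perseus peak, chr1:120025901-120025999, ranked 6469 of 6616 (97.8%), and was also intergenic, 23871 bp before the start of HSD3B1 and 68.4 kb after that of HSD3B2. The pair had peaks at both dosages, at different places, and neither peak overlapped a peak of another list. Within the Perseus lists HSD3B2 had its nearest peak closer at the overexpressed dosage, and HSD3B1 had it closer at the basal dosage. This contrast follows from the place of a single peak per list, which both genes share. With every list cut to its best 4393 peaks, both genes lost the basal Perseus peak and kept the overexpressed Perseus peak. For either gene, 305 other protein-coding genes had the same numbers of peaks per list, its neighbour included.

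The peak before HSD3B2 is printed because no other peak of the series was closer to the start of a member. It held none of the searched sequences, so no base is in capitals.

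HSD3B2 upstream peak, chr1:119953601-119953749, plus strand: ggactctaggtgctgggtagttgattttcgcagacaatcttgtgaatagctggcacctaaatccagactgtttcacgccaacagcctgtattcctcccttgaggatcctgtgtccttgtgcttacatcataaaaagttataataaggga

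CYP17A1 (ENSG00000148795, chr10:104590288-104597229, minus strand) had a peak in all 4 lists, and no other member did. Among all protein-coding genes 19.5% had a peak in all 4. The numbers were 1 basal Millipore, 2 overexpressed Millipore, 4 basal Perseus and 1 overexpressed Perseus peak, at 5 sites. Exactly these numbers were shared by 5 other protein-coding genes. With all lists cut to their best 4393 peaks CYP17A1 kept no overexpressed Perseus peak and was in 3 lists.

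The nearest peak, 16.9 kb before the start of CYP17A1, was found in 3 lists. Its start at position 104614051 of chromosome 10 was the same in each, with ends at 104614199 (overexpressed Millipore, rank 9359, 78.6%) and at 104614149 (basal Perseus, rank 4243, 64.1%, and overexpressed Perseus, rank 6359, 85.3%). This was the only one of the 12 sites found in 3 lists, none was found in 4, and it ranked in the worse 50% of each list. It lay in coding sequence of BORCS7, a gene for a subunit of a lysosome-positioning complex, with its centre 84 to 109 bp after the start of that gene. By position it was a promoter peak of BORCS7 and a distal peak of CYP17A1, and it held no SF-1 nonamer.

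The next site, 26.4 kb before CYP17A1, was the only one found with both antibodies at basal dosage. The basal Millipore peak, chr10:104623501-104623699, ranked 3232 (73.6%), and the basal Perseus peak, chr10:104623501-104623649, ranked 5002 (75.6%). It lay in an untranslated region of BORCS7 and in an intron of the BORCS7-ASMT readthrough gene. Both peaks held the same SF-1 nonamer, 36 and 61 bp from their centres. Neither overexpressed list had a peak there.

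Another pair of basal Perseus peaks flanked the start of CNNM2, a magnesium transport gene, 80.3 and 80.9 kb before CYP17A1. They were chr10:104677451-104677649 (rank 2379, 35.96%), 501 bp before that start, and chr10:104678101-104678199 (rank 4476, 67.7%), 99 bp after it. Neither held an SF-1 nonamer, and no other list had a peak at them. In all, 3 of the 5 sites counted for CYP17A1 lay 501 bp or less from the start of another gene.

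On the far side, 98.9 kb beyond the end of CYP17A1, the overexpressed Millipore list had chr10:104491201-104491499 (rank 2885, 24.2%) in an intron of SFXN2, a mitochondrial transporter gene. It was just inside the 100 kb limit and would be left out if distance were taken from the start, from which it lay 105.9 kb away. It was the only peak near a member with 2 SF-1 nonamers. Just outside the limit, at 116 kb from CYP17A1, the basal Perseus list had chr10:104474251-104474499 (rank 2680), the overexpressed Perseus list chr10:104474201-104474349 (rank 4539) and the overexpressed Millipore list chr10:104473701-104473899 (rank 8651). The count for CYP17A1 therefore depends on where the limit is set, and with 200 kb it was 2, 4, 6 and 4 peaks in the order of the lists above.

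The sequences of the sites near CYP17A1 and CYP19A1 that hold the nonamer are shown to let the element be read in its surroundings. The SF-1 nonamer was searched in 8 forms: CCAAGGCCA, CCAAGGCCG, CCAAGGTCA, CCAAGGTCG, TCAAGGCCA, TCAAGGCCG, TCAAGGTCA and TCAAGGTCG. Both strands were searched, and capitals mark a match. A match on the minus strand appears as its reverse complement. For the site in the untranslated region a window of 29 bases is given.

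CYP17A1 downstream peak in SFXN2, chr10:104491201-104491499, plus strand: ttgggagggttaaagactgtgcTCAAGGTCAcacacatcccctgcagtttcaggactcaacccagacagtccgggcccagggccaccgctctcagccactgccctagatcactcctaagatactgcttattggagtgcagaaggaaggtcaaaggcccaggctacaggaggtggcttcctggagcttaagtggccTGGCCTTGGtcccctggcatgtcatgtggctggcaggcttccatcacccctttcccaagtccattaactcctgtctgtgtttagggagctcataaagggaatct
CYP17A1 upstream site in BORCS7, chr10:104623622-104623650, plus strand: cttgattaagTGACCTTGActttcatttt
CYP19A1 intron peak, chr15:51550151-51550349, plus strand: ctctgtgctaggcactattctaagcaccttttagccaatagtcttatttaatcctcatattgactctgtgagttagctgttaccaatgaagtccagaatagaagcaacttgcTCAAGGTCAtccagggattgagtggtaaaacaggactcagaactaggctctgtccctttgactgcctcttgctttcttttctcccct

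The first line holds TCAAGGTCA on the plus strand and CCAAGGCCA on the minus strand, 123 and 50 bp from the peak centre. In the others the form was TCAAGGTCA, on the minus strand near CYP17A1 and on the plus strand in CYP19A1.

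CYP21A2 (ENSG00000231852, chr6:32006104-32009421, plus strand) had 1 basal Millipore and 1 overexpressed Perseus peak, at different places, and none in the other lists. The basal Millipore peak, chr6:32072751-32072949, ranked 808 of 4393 (18.4%) and lay 63.4 kb beyond the gene, in an intron of TNXB, which encodes the extracellular matrix protein tenascin-X. It held the half-site AGGTCA on the minus strand, the core that nuclear receptors recognise, and no nonamer. The overexpressed Perseus peak, chr6:32016151-32016299, ranked 3939 of 7453 (52.9%), lay in TNXB coding sequence 6.80 kb beyond the end of CYP21A2, and held neither element. The nearest peaks of the lists without one were 159 kb (overexpressed Millipore) and 136 kb (basal Perseus) from the gene. The same numbers per list were found at 159 other protein-coding genes.

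CYP21A2 downstream peak in a TNXB intron, half-site in capitals, chr6:32072751-32072949, plus strand: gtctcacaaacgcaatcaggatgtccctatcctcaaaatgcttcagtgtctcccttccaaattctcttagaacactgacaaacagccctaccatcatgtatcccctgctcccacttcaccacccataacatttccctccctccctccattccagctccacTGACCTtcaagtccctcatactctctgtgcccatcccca

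CYP21A2 stands in a duplicated segment with the pseudogene CYP21A1P, and reads from duplicated sequence can map to several places. How the mapping treated such reads is not stated. As a description of the reference, 29.9% of the 36-base words of the CYP21A2 body occurred once in the genome, counting both strands, against 76.5% to 95.6% for the other members. Within 1 kb of the start the share was 36.6% for CYP21A2 and 60.3% for CYP11B1, and 90.2% to 99.9% for the others. In 33 consecutive bins of 2 kb, from 58 kb before the start of CYP21A2 to 8 kb after it, less than 50% of the words were unique, and 16 of these bins had no unique word. Both CYP21A2 peaks lay outside that run, the nearer one 10.1 kb after the start. Its part in the absence of peaks at the gene was not tested. At the peaks themselves every word was unique in 14 of 16, and the exceptions were the HSD3B peaks, with 94.6% before HSD3B2 and 68.7% before HSD3B1.

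**Figure D2:**
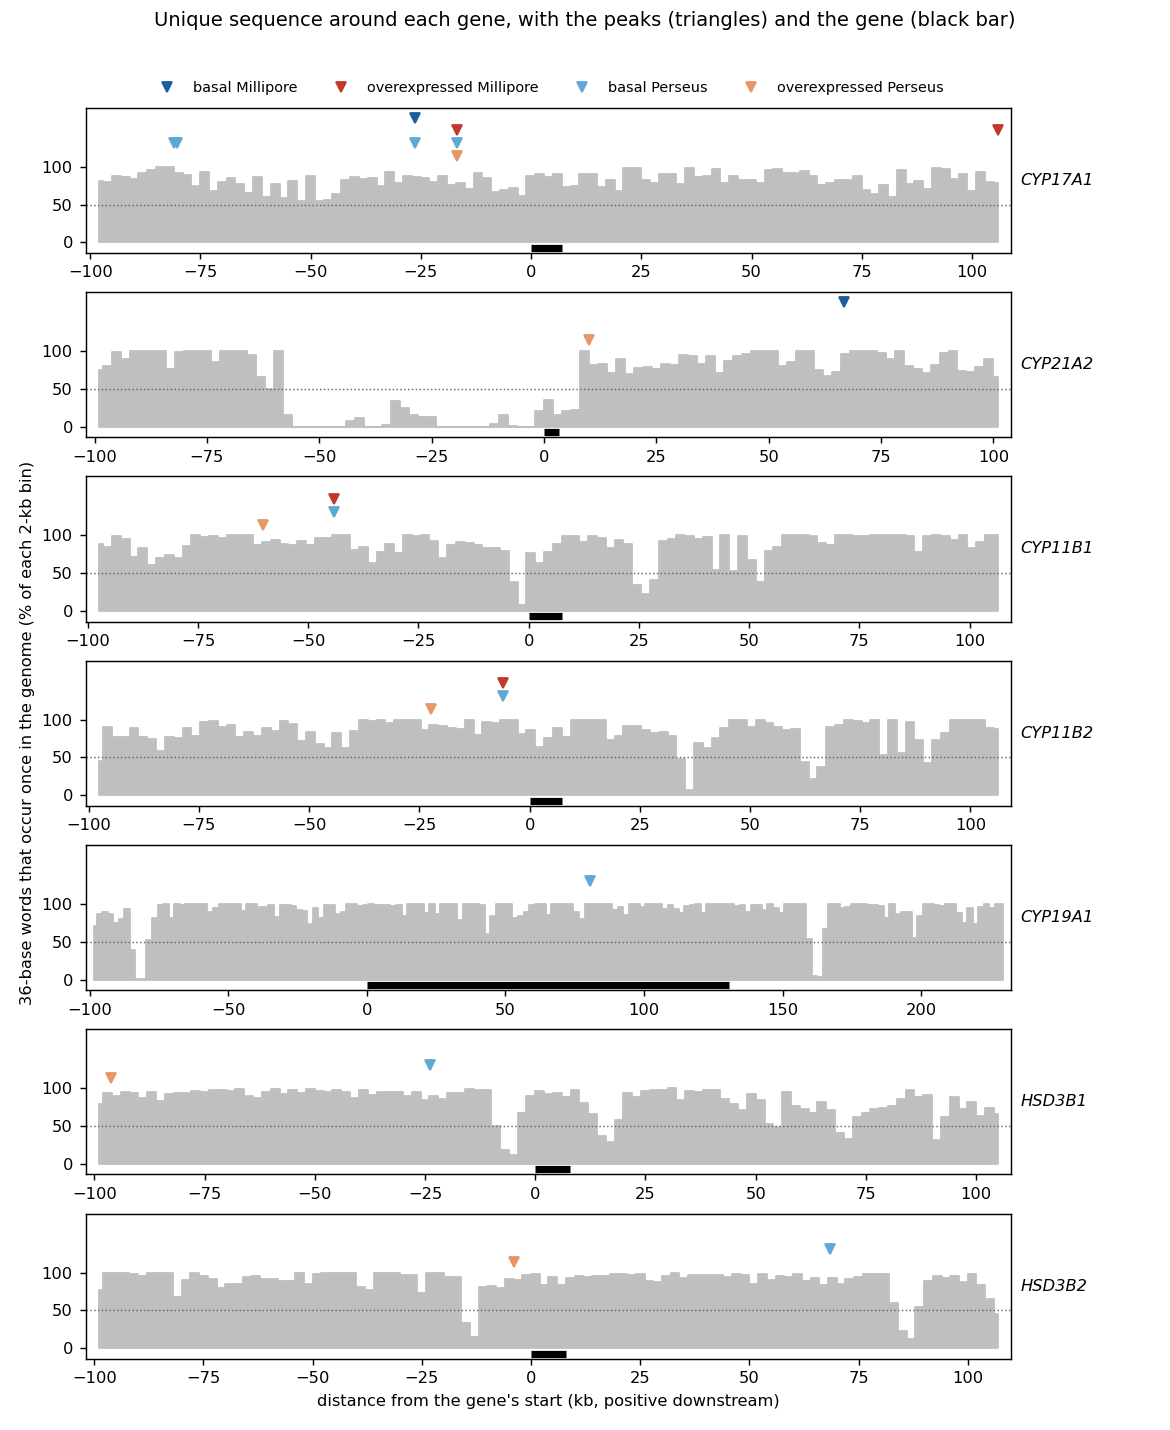
Share of 36-base words that occur once in the genome, in percent of each 2-kb bin (grey), against the distance from the start of each gene in kb. Triangles above mark the peaks in the colour of their list, black bars the gene bodies. The CYP21A2 panel drops under 50% from 58 kb before to 8 kb after the start, and both triangles stand outside that stretch.

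CYP11B1 (ENSG00000160882, chr8:143953772-143961262, minus strand) and CYP11B2 (ENSG00000179142, chr8:143991975-143999259, minus strand) had no basal Millipore peak and the same single peak in each of the other lists. With the Millipore antibody at overexpressed dosage a peak spanned chr8:144005251-144005549, rank 2096 (17.6%), the best relative rank of the 16. A Perseus peak with the same start, ending at 144005499, ranked 4244 (64.1%) at basal dosage. The site was thus found across antibody and dosage at once, and in no pair of lists that differ in only 1 of them. Measured from the peak centres it lay 6.14 and 6.12 kb before the start of CYP11B2, the aldosterone gene, and 44.1 kb before that of CYP11B1. Both peaks held the nonamer TCAAGGTCA on the minus strand, 82 and 107 bp from the centre. The overexpressed Perseus list had chr8:144021501-144021599 instead, rank 6391 (85.8%), 22.3 kb before CYP11B2 and 60.3 kb before CYP11B1, without a nonamer. All 3 peaks were intergenic, and on the CYP11B2 side. For either gene, a peak count of 0, 1, 1 and 1 was also found at 337 other protein-coding genes, its neighbour included.

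CYP19A1 (ENSG00000137869, chr15:51500254-51630798, minus strand) had 1 peak, in the basal Perseus list, at chr15:51550151-51550349 with rank 1651 (24.95%). It was the only peak that lay within the body of a member. It fell in an intron, 80.5 kb after the outermost start and 14.99 kb before the nearest start of the gene's 15 annotated transcript starts, and it also lay in an intron of the long noncoding RNA MIR4713HG on the other strand. The nonamer in it was 17 bp from the centre, closer than in any other peak near a member. In the remaining lists the nearest peak was 291 kb (basal Millipore), 169 kb (overexpressed Millipore) and 292 kb (overexpressed Perseus) from the gene. A peak in the basal Perseus list alone was found at 527 other protein-coding genes with equal numbers.

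**Figure D3:**
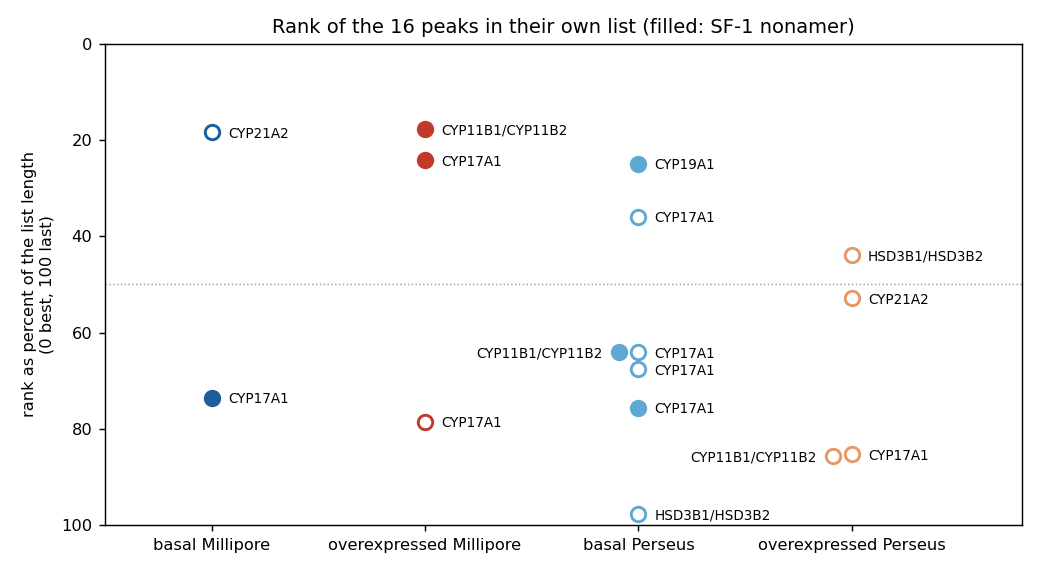
Rank of each of the 16 peaks as percent of the length of its own list (vertical axis, best at the top), by list, with the member it lies near. Filled circles hold the SF-1 nonamer. The median is 64.1%, and the filled circles of the overexpressed Millipore list stand at 17.6% and 24.2%.

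By rank the 16 peaks ran from 17.6% to 97.8% of the list length with a median of 64.1%. The better 25% of its list held 4 of them, those at CYP11B2 and SFXN2 (overexpressed Millipore), in the TNXB intron (basal Millipore) and in CYP19A1 (basal Perseus). The worse 50% held 10.

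**Figure D4:**
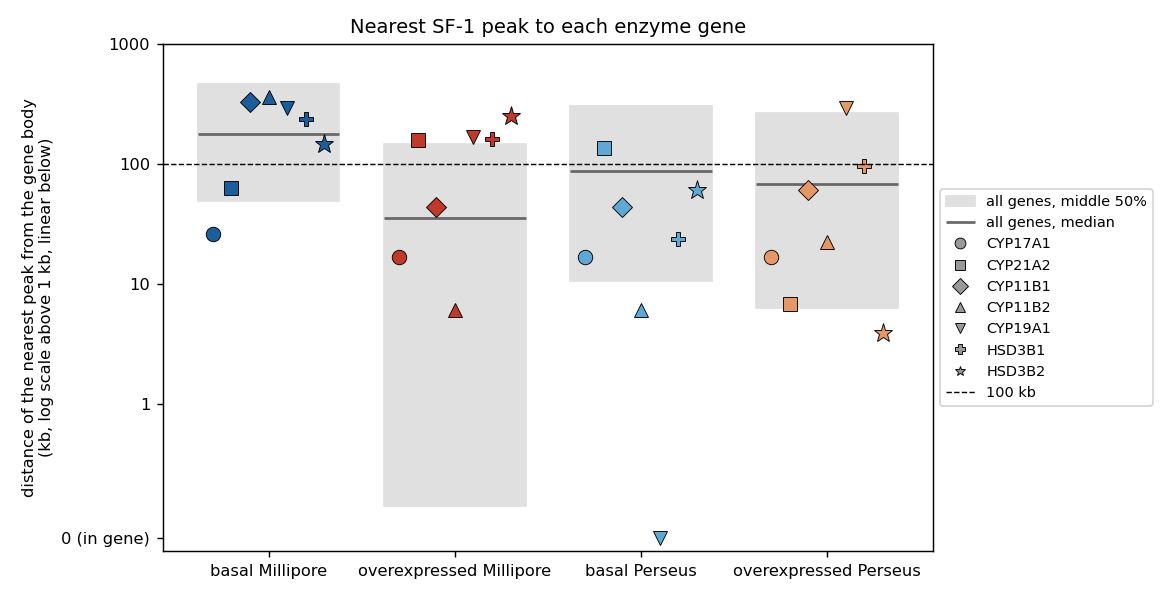
Distance from each gene body to its nearest peak in kb (vertical axis, log scale above 1 kb and linear below), by list. Symbols are the 7 members, grey boxes span the middle 50% of all protein-coding genes and grey lines their median. CYP17A1 lies below the grey line in every list, and CYP19A1 is at 0 in the basal Perseus list.

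The median distance from a member to its nearest peak was 239 kb in the basal Millipore list, where it was 179 kb over all protein-coding genes. In the overexpressed Millipore list it was 159 kb against 35.7 kb. With the Perseus antibody the median was 23.9 kb against 87.2 kb at basal and 22.3 kb against 68.6 kb at overexpressed dosage. The basal Perseus median was the distance of HSD3B1 to a peak ranked 6469. The overexpressed Perseus median was that of CYP11B2 to a peak ranked 6391. With every list cut to the length of the shortest, neither gene kept a peak within 100 kb in that list. These medians are for full lists of unequal length, and neighbouring members share peaks. Medians at equal length are not given here. CYP17A1 was nearer to a peak than the median gene in all 4 lists, and 18.5%, 39.7%, 28.03% and 30.9% of genes had a nearer one in the order of the lists above. HSD3B2 ranged from 3.88 kb in the overexpressed Perseus list to 253 kb in the overexpressed Millipore list, where 84.0% of genes had a nearer peak.

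Sharing between lists was sparse over the whole lists (percentages in brackets). With 2 to 7 peaks per list, the counts near members were close to those shares. Of the 2 basal Millipore peaks near members 0 overlapped an overexpressed Millipore peak (12.4% of the whole list) and 1 a basal Perseus peak (11.6%). For the 3 overexpressed Millipore peaks the numbers were 0 with basal Millipore (4.53%) and 1 with overexpressed Perseus (11.5%). Among the 7 basal Perseus peaks 1 was shared with overexpressed Perseus (29.5%) and 1 with basal Millipore (7.65%). Of the 4 overexpressed Perseus peaks 1 was shared with basal Perseus (26.2%) and 1 with overexpressed Millipore (18.5%). Each of these shares of 1 came from the CYP17A1 sites in BORCS7. No site near a member was found with the Millipore antibody at both dosages. In all, 9 of the 12 sites were in 1 list, 2 in 2 lists and 1 in 3. The same split over all sites of the series is not given here.

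At 6 of the 12 sites the nearest start of a protein-coding gene was that of a member: both HSD3B sites, both CYP11B sites, the TNXB coding site for CYP21A2 and the CYP19A1 site. At the other 6, among them all 5 sites of CYP17A1, it was the start of another gene.

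The SF-1 nonamer was present in 6 of the 16 peaks (37.5%, Wilson 95% interval 18.5 to 61.4, counting error only) and at 4 of the 12 sites. The interval takes the 16 peaks as independent and is too narrow. Of the 4 sites with the nonamer, 2 were counted in 2 lists each. By list it was in 1 of 2 basal Millipore peaks (16.0% of the whole list), 2 of 3 overexpressed Millipore peaks (10.9%), 3 of 7 basal Perseus peaks (21.6%) and 0 of 4 overexpressed Perseus peaks (17.2%). Windows of the same width 5 kb to each side of all peaks held it in 1.22% to 1.69%. The 4 sites with a nonamer belonged to CYP17A1, the CYP11B pair and CYP19A1, and of the 3 sites in more than 1 list 2 had it. The half-site AGGTCA, which lies inside the nonamer forms ending in AGGTCA, was in 7 of 16 peaks, where 19.3% to 22.2% of the peaks of each whole list and 10.5% to 13.5% of the windows beside them held it. No peak near a member held AAAGGTCA, the octamer bound by NR4A receptors, or the NRSF/REST sequence with up to 4 mismatches. Over the whole lists 0.937% to 1.26% of peaks held the first and 0.181% to 1.12% the second, so none among 16 is close to the background, and a count of 0 allows a share of up to 19.4% (Wilson upper limit). That limit also takes the 16 peaks as independent, though some are the same site in several lists.

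Most nonamers around the members were outside peaks. The gene and 100 kb to each side held 24 nonamers for CYP17A1, of which 3 were in peaks, and 38 for CYP19A1, of which 1 was in a peak. For CYP21A2, HSD3B1 and HSD3B2 there were 22, 28 and 25, and none was in a peak. CYP11B1 had 17 and CYP11B2 21, with the same 1 in a peak.

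The promoters were taken as 250 bases before to 50 bases after the outermost annotated start of each gene. They had no peak but differed in sequence. Other transcript starts were not searched for sequence, though CYP19A1 has 15 annotated starts and HSD3B2 has 6. CYP21A2 was the only member with a nonamer in this window, CCAAGGCCA, with its first base 79 bases before the start. Over all protein-coding genes 2.39% of promoters had one. AGGTCA was in 6 of the 7 windows, all but that of HSD3B2, where 13.3% of all promoters held it. The HSD3B1 and HSD3B2 windows do not cover matching sequence. A stretch common to both lies at the far end of the HSD3B1 window and close to the start in that of HSD3B2. The lack of AGGTCA at HSD3B2 therefore holds for this window only. AAAGGTCA, which contains it, was in CYP21A2 (148 bases before the start) and HSD3B1 (119 bases before), and in 1.10% of all promoters. These are matches of letters, and in these lists none of them lay in a peak. Both promoters with AAAGGTCA are printed up to the base before the start, with AAAGGTCA and CCAAGGCCA in capitals.

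CYP21A2 promoter, chr6:32005854-32006103, plus strand: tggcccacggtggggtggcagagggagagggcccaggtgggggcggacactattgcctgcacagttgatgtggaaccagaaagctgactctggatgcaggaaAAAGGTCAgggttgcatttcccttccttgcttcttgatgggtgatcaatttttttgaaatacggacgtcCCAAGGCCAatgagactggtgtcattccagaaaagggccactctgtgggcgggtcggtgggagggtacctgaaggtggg
HSD3B1 promoter, chr1:120049571-120049820, plus strand: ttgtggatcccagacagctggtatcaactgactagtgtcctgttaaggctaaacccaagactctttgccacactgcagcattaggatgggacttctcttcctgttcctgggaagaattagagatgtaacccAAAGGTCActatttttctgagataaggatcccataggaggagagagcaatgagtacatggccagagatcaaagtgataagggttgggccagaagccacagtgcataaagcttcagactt

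The enzymes before and after the members were described in the same way. Of 6 genes for the upstream steps and the electron donors of the P450 enzymes, 4 had a basal Millipore, 6 an overexpressed Millipore, 4 a basal Perseus and 4 an overexpressed Perseus peak within 100 kb. The shares of all protein-coding genes were 36.5%, 67.9%, 52.6% and 56.7% in the same order, and 19.5% had a peak in all 4 lists. STAR, which carries cholesterol into mitochondria, CYP11A1, which makes pregnenolone, and POR, the electron donor of the microsomal enzymes CYP17A1, CYP21A2 and CYP19A1, had peaks in all 4 lists. CYP11A1 had 5, 19, 3 and 5 peaks in the order of the lists above, where no member had more than 4 in a list. A peak within 1 kb of the start was found at 4 of these 6 genes in 1 list each, beside the shares of all genes given above for such peaks: CYP11A1 and POR with Millipore at overexpressed dosage, FDX1, the mitochondrial electron carrier, with Perseus at basal dosage, and STAR with Perseus at overexpressed dosage. Of 9 genes for later steps 4, 7, 5 and 6 had a peak. Among these HSD17B3, which makes testosterone, SRD5A1, which reduces it, and HSD11B2, which inactivates cortisol, had peaks in all 4 lists, and HSD17B2 and SRD5A2 had none in any. Of the 9 later genes 1, HSD11B2, had a peak within 1 kb of its start, with Millipore at overexpressed dosage. With every list cut to 4393 peaks, 4, 4, 4 and 3 of the 6 upstream genes and 4, 5, 4 and 6 of the 9 later genes had a peak. All protein-coding genes then stood at 36.5%, 40.7%, 41.8% and 43.1%. Whether these gene sets differ from the members was not tested.

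**Figure D5:**
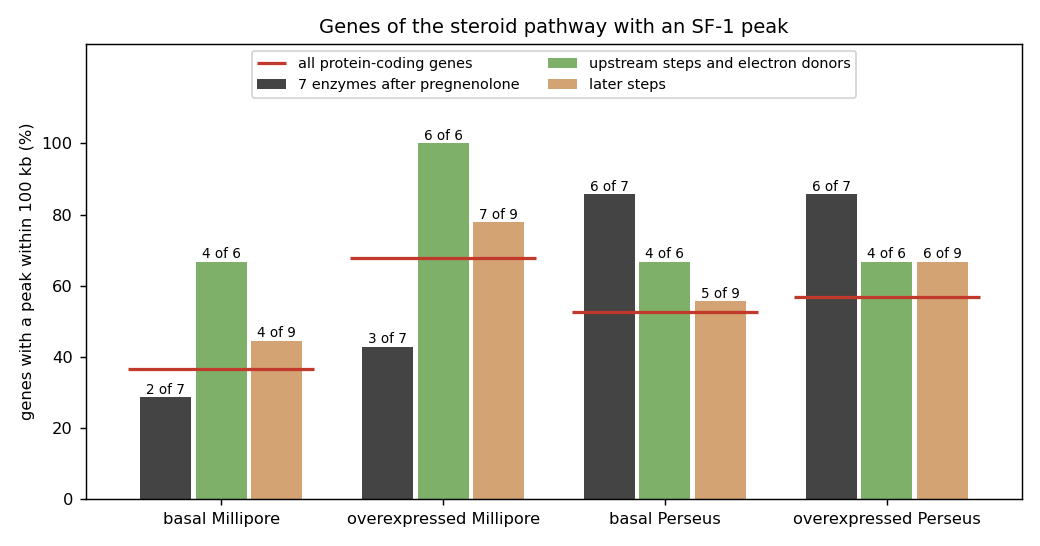
Percent of genes with a peak within 100 kb of the gene body (vertical axis), by list, for the 7 members, the 6 genes of upstream steps and electron donors and the 9 genes of later steps, with counts above the bars. Red lines are all protein-coding genes, at 36.5%, 67.9%, 52.6% and 56.7%. The bars are for the full lists of unequal length, with the members at 2, 3, 6 and 6 of 7.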

How the data were processed

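SF-1 ChIP-seq was done in H295R/TR SF-1 cells. According to the methods of the study, the authors mapped Illumina reads to hg19 with ELAND. They called peaks from triplicate samples per dosage against input with SeqPeak of CisGenome. The labels give 3 replicates under each group, read here as 3 pooled libraries. The labels name CASAVA 1.6. Each deposited peak has a position, a rank and a score. The score in the deposited lists was 1000 throughout and carries no measurement. The quantity behind the rank is not stated. Starts fell on a 50-bp grid. Read length, depth and the handling of duplicates and of reads with several matches are not given in the sources used here. No filter was applied to the peaks.

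Peak centres were compared with gene bodies of GENCODE version 44 on GRCh37 (hg19), sharing was overlap of at least 1 bp, and sequences were read from GRCh37. Uniqueness was taken over 36-base words, a length chosen here. Intervals are Wilson or exact Poisson at 95% and cover counting error only. With 1 list per group no test was made. Named genes are the 7 members, 6 upstream and 9 later pathway genes, and genes at a peak by position only. Genes with the same numbers of peaks as a member were to be named if 3 or fewer. The members and gene lists were chosen with earlier results of these data known. Alternatives covered distances, list lengths, rank limits, the overlap and the form of the sequence. In simulated data all 200 planted copies each of the SF-1 nonamer, AGGTCA, AAAGGTCA and the NRSF/REST sequence were found, and all 200 planted overlaps. Python 3.11.15, numpy, scipy, numba and matplotlib were used.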

Additional observations from a re-analysis of the deposited data

Results flagged for a closer look

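The change in the number of peaks from basal to overexpressed SF-1 went in opposite directions with the 2 antibodies in 3 cases, in the full lists. For CYP17A1 it was 1 with Millipore and -3 with Perseus. For CYP21A2 it was -1 with Millipore and 1 with Perseus. Over all 7 members it was 1 with Millipore and -3 with Perseus. Each rests on 1 list per group and on few peaks, and the difference between the antibodies was not tested. For CYP17A1 the Millipore change of 1 rests on the SFXN2 peak near the 100 kb limit. The overexpressed Millipore list also had 11910 peaks against 4393 at basal dosage, and the Perseus lists 7453 against 6616. With every list cut to 4393 peaks the change for CYP17A1 was 0 with Millipore and -2 with Perseus, and that over all members likewise 0 and -2, so the opposite directions of these did not hold at equal list length. For CYP21A2 the changes at equal length were -1 and 1, as in the full lists. The shorter lists gave CYP11B1 and CYP11B2, which share their peaks, changes of 1 and -1, where the full lists gave 1 and 0. Per 10000 peaks of the full lists the values were lower at overexpressed dosage, 2.52 against 4.55 (Millipore) and 5.37 against 10.6 (Perseus). For Millipore the overexpressed list was also the longer one, and at equal length the change was 0.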

How the results depend on the processing

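Counts per group changed little with the overlap that defines sharing, with distance from the start instead of the gene body, with all transcript starts, or with peaks up to 500 bp apart joined. The distance from the start did lower the overexpressed Millipore peaks from 3 to 2, and those of CYP17A1 from 2 to 1. The form of the SF-1 sequence or a peak widened by 100 bp gave 6 or 7 peaks. Of 103 recomputed values per list or over all members, 68 stayed within 1.5 times the first value and 35 moved. Of 168 recomputed counts of single members, 123 stayed and 45 moved. No paired analysis was possible because each group has 1 list and no test was made.

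With a distance of 10 kb, peaks near members were 0, 1, 2 and 2 (basal Millipore, overexpressed Millipore, basal Perseus, overexpressed Perseus), members with a peak likewise 0, 1, 2 and 2, upstream genes in the basal Millipore list 2, and later genes 3 in the overexpressed Millipore and 1 in the basal Perseus list. At 50 kb, peaks and members in the basal Millipore list were 1 and 1. At 200 kb, peaks were 5, 8 and 7 in the basal Millipore and both overexpressed lists, and members in the overexpressed Millipore list 6. In the better-ranked 50% of each list, peaks were 1, 2 and 1 in the basal Millipore, basal Perseus and overexpressed Perseus lists, members 1, 2 and 2, sites 6, sites in several lists 0, and the 6 shares of 1 peak between lists all became 0. With every list cut to 4393 peaks, peaks were 4 in the basal and 2 in the overexpressed Perseus list, and members 3 in the latter. Within 5 kb of the start, the overexpressed Perseus list had 1 member. Smaller distances and shorter lists hold fewer peaks by construction.

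With 16 peaks in all, a change of 1 peak moves most counts. Depth per list is unknown, so a missing peak does not show missing binding.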
